A study of Homo sapiens with 12 samples.

Results

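The RAF-MEK-ERK cascade was followed through 10 of its transcripts in A375 cells, an established human melanoma line. The genes are DUSP4, DUSP6, SPRY2, SPRY4, SPRED1, SPRED2, ETV4, ETV5, CCND1 and PHLDA1. They were taken by symbol from the 61209 gene names of a table of fragment counts, and all 10 passed the filter on low counts, as did 18526 names in all. RNA was sequenced from 12 libraries in 4 groups of 3. Control A375 cells and A375 cells with less OGDH were each collected either with glucose (0 h of starvation) or after 5 h of glucose starvation. OGDH encodes the E1 subunit of 2-oxoglutarate dehydrogenase in the tricarboxylic acid cycle. The titles call the second line KO while the accompanying text speaks of knockdown, so it is called OGDH-depleted here. How the depletion was made, whether the line is 1 clone, and what the control cells carry is not stated in the labels. Nothing in the labels ties the 3 libraries of a group to separate cultures, so each p-value measures the spread between these libraries, which may be technical.

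The cascade carries signals from growth factor receptors through RAS, the RAF kinases and MEK to ERK, a kinase that acts on transcription factors. In melanoma it is often kept on by an activating mutation of BRAF, and A375 is known as a line of that kind. Among the transcripts that ERK raises are its own brakes. DUSP4 and DUSP6 encode phosphatases that remove the activating phosphates from ERK, and Sprouty and SPRED proteins act higher up, between receptors, RAS and RAF. ETV4 and ETV5 encode ETS transcription factors, CCND1 encodes cyclin D1, which drives entry into S phase, and PHLDA1 encodes a pleckstrin-homology-like protein that is also induced by stress. Because these transcripts follow ERK activity, they are used as a transcript readout of it, but transcript levels do not measure ERK phosphorylation.

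Sequence before the start site is shown for 4 members: SPRY4, the member whose level varied most between groups, its relative SPRY2, DUSP6, which passed the test in none of the comparisons, and PHLDA1, which varied most between libraries. The sequences are from RefSeq (GRCh38.p14), from which windows of 6 of the 10 members were taken, with 9 start sites among them. All 4 genes lie on the minus strand, and the sequences are written 5′ to 3′ along it. They cover chr5:142324418-142324497 for SPRY4, chr13:80341127-80341376 for SPRY2, chr12:89352502-89352751 for DUSP6 and chr12:76031777-76032026 for PHLDA1. The last 3 are the 250 bases before the start site at the outer end of the counted gene, whereas the 1 start that RefSeq's table gave for SPRY4 lies inside the counted gene, so its window is not the sequence upstream of the whole gene. Of the 250 bases before that internal start, the 80 farthest from it are shown, which lie between exons of the counted gene model, because the others lie in an exon. Capitals mark the ETS core CCGGAA or its reverse complement.
SPRY4: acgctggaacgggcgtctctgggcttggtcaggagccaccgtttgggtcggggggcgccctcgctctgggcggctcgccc
SPRY2: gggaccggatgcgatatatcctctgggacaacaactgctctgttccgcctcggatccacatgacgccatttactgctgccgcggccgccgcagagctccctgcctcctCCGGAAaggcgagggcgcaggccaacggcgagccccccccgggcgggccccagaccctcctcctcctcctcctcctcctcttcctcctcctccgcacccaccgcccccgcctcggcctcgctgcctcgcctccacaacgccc
DUSP6: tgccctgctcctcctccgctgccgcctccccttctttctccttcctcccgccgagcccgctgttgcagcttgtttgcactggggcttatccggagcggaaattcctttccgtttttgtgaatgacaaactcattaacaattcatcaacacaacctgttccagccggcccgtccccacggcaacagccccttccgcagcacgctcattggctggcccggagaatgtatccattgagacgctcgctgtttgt
PHLDA1: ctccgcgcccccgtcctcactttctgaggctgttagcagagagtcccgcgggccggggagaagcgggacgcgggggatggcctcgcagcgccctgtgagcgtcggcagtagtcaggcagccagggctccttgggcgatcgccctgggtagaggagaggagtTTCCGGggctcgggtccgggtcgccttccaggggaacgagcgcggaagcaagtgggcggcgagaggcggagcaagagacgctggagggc

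Each of the 9 windows of 250 bases was searched on both strands for 6 motifs: AP-1 (TGANTCA), CRE (TGACGTCA), the ETS core (CCGGAA), the CIC octamers (TGAATGAA and TGAATGGA), EGR (GCGTGGGCG) and the E-box (CACGTG). DUSP4, CCND1, ETV4 and ETV5 had no window in this search. Of these motifs, 1 was found, the ETS core, in 2 windows. It begins 142 bases before the outermost SPRY2 start on the transcribed gene's own strand, and 89 bases before the PHLDA1 start on the other strand. The same core is in 14.5% of 35116 promoter windows of that length. The shares for AP-1, CRE, CIC, EGR and the E-box were 6.57%, 1.65%, 2.19%, 0.72% and 6.34%. A match of letters is not a measured binding site, and the absence of these letters from a window says nothing of the factor.

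Libraries held 21556273 to 25546615 counted fragments. Levels are CPM, counts brought to a common library total after library sizes were adjusted by the trimmed mean of M values (TMM), with ± for the standard deviation (SD) of n = 3 libraries. OGDH, the check of the labels, lay at 142 to 165.7 CPM in control cells, 128.8 to 132.8 in starved control cells, 36.3 to 45.1 in OGDH-depleted cells and 32.3 to 33.9 in starved OGDH-depleted cells. Of the 9 melanocyte markers looked up, SOX10 (299 to 670.3 CPM over the 12 libraries), MITF (23.5 to 49.3) and PAX3 (12.4 to 14.3) were present, whereas PMEL, MLANA, TYRP1, DCT and S100B stayed at or below 2.79 CPM and TYR at 1 count at most. The 4 fibroblast and 5 blood markers summed to at most 9.52 and 2.54 CPM. The 4 epithelial markers summed to 349 to 395 CPM in control cells and to 800.3 to 888 in starved control cells, with EPCAM and CDH1 at 6 counts at most. The melanocyte markers summed to 621 to 726.5 CPM in control cells and 350.5 to 441 in starved control cells, and 4 markers of dedifferentiated melanoma (AXL, NGFR, SOX9 and TNC) to 1044 to 1231 and 1480 to 1606 CPM. These sums moved with starvation in control cells, but the markers in a sum did not all move together. In group means SOX10 went from 632.8 to 348.3 CPM, MITF from 30.1 to 44.2 and TYRP1 from 0.221 to 2.57. AXL went from 363.9 to 628.6 CPM and TNC from 733.6 to 678.4. Among the epithelial markers KRT18 went from 296.3 to 743 CPM and KRT8 from 81 to 96.7. Of all these, MITF, TNC and KRT8 were not called by edgeR. The part of the sums in the members' responses was not tested. In bulk RNA, fewer cells with a transcript and less of it per cell cannot be told apart. Library by library, 3 of the 12 stood farthest from their group: replicate 2 of the control group, replicate 3 of its starved group and replicate 3 of the starved OGDH-depleted group, with a root mean square deviation of 0.33, 0.33 and 0.26 in log2 CPM. These libraries also differed from their group in the share of counts from mitochondrially encoded genes, which was 14.6% in control replicate 2 against 4.97% and 6.35%, 4.11% in starved control replicate 3 against 14.4% and 13.2%, and 9.71% in starved OGDH-depleted replicate 3 against 3.06% and 5.12%.

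Per kilobase of exon, CCND1 and PHLDA1 had the highest mean levels of the members in all 4 groups, although in OGDH-depleted cells with glucose PHLDA1 (75 ± 8.17 CPM per kb) overlapped with DUSP6 (69.1 ± 6.11). The length includes exon bases shared with other genes, where fragments were not counted. These were 28.6% for DUSP6, 10.4% for CCND1 and 9.35% for PHLDA1. Such levels are therefore too low, most of all for DUSP6, and its order against PHLDA1 is uncertain. In control cells CCND1 stood at 125 ± 3.46 CPM per kb and PHLDA1 at 96.9 ± 39.6, and the libraries of the 2 genes overlapped. DUSP6 followed at 67 ± 5.04, SPRY2 at 56.7 ± 9.54, ETV4 at 41.9 ± 5 and DUSP4 at 40.6 ± 2.7 CPM per kb, and each of these neighbours overlapped with the next. A step without overlap separated DUSP4 from SPRED2 (19.2 ± 3.49), SPRY4 (15.6 ± 1.17) and ETV5 (13.9 ± 1.13), and another separated these from SPRED1, the lowest at 6 ± 0.904 CPM per kb. By mean level on this scale DUSP6, SPRY2, ETV5 and SPRED1 held ranks 3, 4, 9 and 10 in all 4 groups. SPRY4 moved from rank 8 in control cells to rank 5 in starved control cells (54.2 ± 6.84 CPM per kb, overlapping with SPRY2 at 62.5 ± 8.68) and stood at rank 7 in both OGDH-depleted groups.

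**Figure D1:**
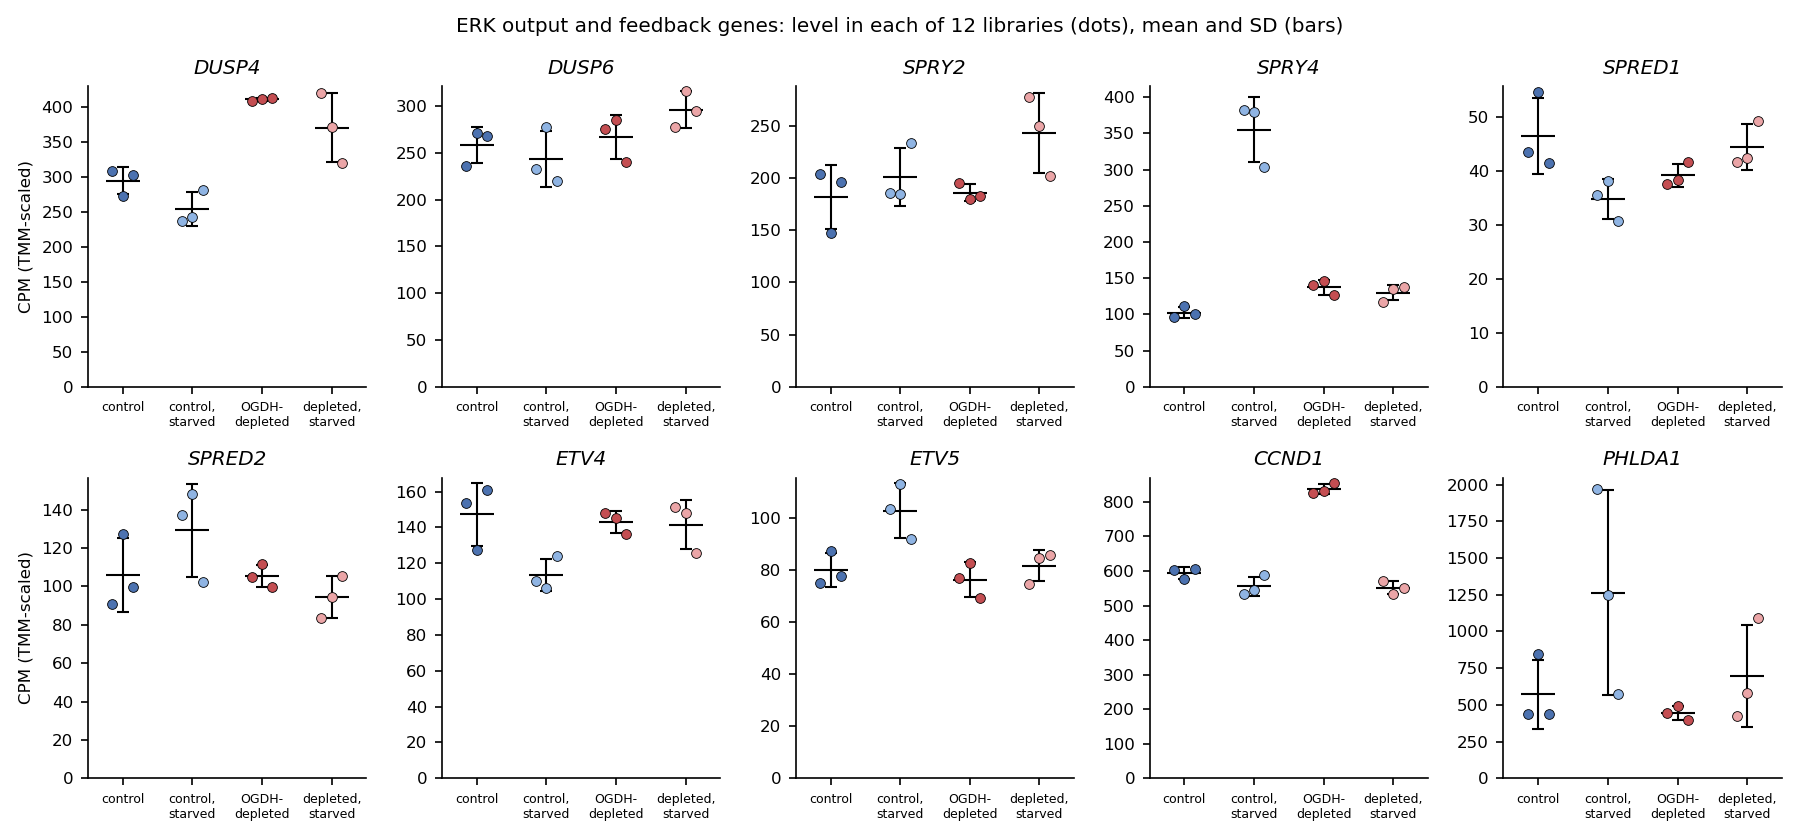
Level of the 10 members in each library, in CPM, with dots for the 3 libraries of a group, in replicate order from left to right, and bars for the mean and SD. The 3 starved control libraries of SPRY4 (304 to 382 CPM) lie above the other 9, the 3 OGDH-depleted libraries with glucose of CCND1 (824 to 854 CPM) lie above the other 9, and the PHLDA1 libraries of 3 groups are widely scattered.

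SPRY4, which encodes a Sprouty protein that restrains the activation of RAS and RAF downstream of receptors, gave the largest response of the 10. Its level was 96.4, 111 and 100.2 CPM in control cells and 382, 380.1 and 304 CPM in starved control cells (replicates 1, 2 and 3 throughout). In OGDH-depleted cells it was 141, 146 and 126 CPM with glucose, and 118, 134 and 137 CPM when starved. The starved control libraries were thus all above every other library, and the 2 OGDH-depleted groups overlapped. Starvation raised SPRY4 3.46-fold in control cells (log2 fold change 1.79, SE 0.12, adjusted p = 8.70e-07; edgeR's quasi-likelihood test with Benjamini-Hochberg adjustment over 18526 genes, as for each adjusted p below). In OGDH-depleted cells no change was detected (log2 fold change -0.08, SE 0.12, adjusted p = 0.68; 95% interval -0.34 to 0.17). The 2 responses differed by -1.88 on the log2 scale (SE 0.17, adjusted p = 3.06e-05 for the edgeR interaction), and in starved cells SPRY4 was 2.73-fold lower with OGDH depletion (log2 fold change -1.45, SE 0.12, adjusted p = 6.67e-06). With glucose the OGDH-depleted libraries lay above the control libraries without overlap, at a difference that missed the threshold (log2 fold change 0.43, SE 0.12, adjusted p = 0.088). That difference passed without starved control replicate 3, which is in neither group but shares in the estimate of spread (edgeR adjusted p = 0.0458).

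SPRY2, the other Sprouty gene tested among the members, did not follow SPRY4. It stood at 204, 147 and 196 CPM in control cells, 185, 184 and 233 in starved control cells, 195, 180.1 and 183 in OGDH-depleted cells and 277, 249.9 and 202 in starved OGDH-depleted cells. The 3 starved OGDH-depleted libraries were above the 3 with glucose, and the control groups overlapped. No comparison passed: starvation gave a log2 fold change of 0.14 in control cells (95% interval -0.20 to 0.48) and 0.39 in OGDH-depleted cells (95% interval 0.05 to 0.73; edgeR adjusted p = 0.16), and the 2 were not shown to differ (interaction, log2 difference 0.25, SE 0.22, adjusted p = 0.52). SPRY4 lies at chr5:142310427-142326455 and SPRY2 at chr13:80335976-80341126 (hg38, minus strand both), and neither shares exon bases with another counted gene.

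SPRED1 and SPRED2 encode Sprouty-related proteins, of which SPRED1 is known to bring the RAS inhibitor neurofibromin to the membrane. SPRED1 stood at 43.5, 54.5 and 41.4 CPM in control cells and 35.5, 38 and 30.6 in starved control cells, with no overlap, and fell 1.34-fold (log2 fold change -0.42, SE 0.13, adjusted p = 0.027). It stood at 37.5, 38.2 and 41.6 CPM in OGDH-depleted cells and 41.5, 42.4 and 49.2 in starved OGDH-depleted cells, groups that overlapped by a narrow margin (log2 fold change 0.18, SE 0.13, adjusted p = 0.4). The edgeR interaction for SPRED1 was 0.60 (SE 0.18, adjusted p = 0.044), a call kept on leaving out 2 of the 12 libraries in turn (control replicate 3 or starved control replicate 2) and lost on leaving out any of the other 10, with adjusted p from 0.0516 to 0.105. The call for starvation in control cells was lost without control replicate 2 (edgeR adjusted p = 0.0722), starved control replicate 1 (0.0628) or starved control replicate 3 (0.0759). SPRED1 has the lowest GC content of the members (38.9%, percentile 11.4 of the tested genes), and libraries differed in their yield by GC content: the slope of a library's deviation from its group mean ran from -0.27 to 0.23 log2 units for 10 points of GC. In a fit with a GC offset the starvation response of SPRED1 in OGDH-depleted cells changed sign, from 0.18 to -0.07, and was not called with either. That offset was built from deviations from the mean of all 12 libraries, so it also takes out differences between groups that follow GC content.

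SPRED2 stood at 90.7, 128 and 99.6 CPM in control cells, 137, 148 and 102 in starved control cells, 105, 112 and 99.6 in OGDH-depleted cells and 83.7, 94.5 and 105 in starved OGDH-depleted cells. Each pair of groups compared overlapped, and no comparison passed with all libraries. Starvation of control cells gave a log2 fold change of 0.29 (95% interval -0.07 to 0.64) and OGDH loss in starved cells one of -0.45 (95% interval -0.81 to -0.09). The first passed edgeR's test without control replicate 2 (log2 fold change 0.44, adjusted p = 0.046) or without starved control replicate 3 (0.43, adjusted p = 0.0431), and the second without either of the same libraries (-0.45, adjusted p = 0.0299, and -0.59, adjusted p = 0.0129). SPRED1 lies at chr15:38252836-38357249 (plus strand) and SPRED2 at chr2:65310851-65432637 (minus strand), with no exon bases shared with other counted genes.

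DUSP4, a nuclear ERK phosphatase, was higher with OGDH depletion in both media. Its level was 309.7, 273 and 303 CPM in control cells and 409.7, 412 and 414 CPM in depleted cells, both with glucose. After starvation it was 237, 243 and 282 CPM and 421, 372 and 321 CPM. In each medium every OGDH-depleted library was above every control library. OGDH depletion raised DUSP4 1.4-fold with glucose (log2 fold change 0.48, SE 0.11, adjusted p = 0.048) and 1.46-fold without (log2 fold change 0.55, SE 0.11, adjusted p = 0.004). The 2 differences were not shown to differ (edgeR interaction 0.06, 95% interval -0.29 to 0.42), and starvation gave log2 fold changes of -0.21 and -0.15 that did not pass. The call without glucose held when each of the 12 libraries was left out in turn. The call with glucose was lost with 9 of the 12 left out, among them each of the 6 compared, at edgeR adjusted p from 0.0695 to 0.177 and log2 fold changes no lower than 0.43. It was also lost with a block for replicate number (log2 fold change 0.48, edgeR adjusted p = 0.0984).

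DUSP6, the cytoplasmic ERK phosphatase widely read as a transcript of ERK activity, passed in none of the 5 comparisons. It stood at 236, 271 and 268 CPM in control cells, 233, 277 and 219.5 in starved control cells, 275, 285 and 240.0 in OGDH-depleted cells and 278, 316 and 295 in starved OGDH-depleted cells. The only pair of groups without overlap was the starved one, with a log2 fold change of 0.28 for OGDH loss (95% interval 0.03 to 0.54; edgeR adjusted p = 0.089), which passed without starved control replicate 2 (0.39, adjusted p = 0.0382). For starvation the intervals were -0.34 to 0.16 in control cells and -0.10 to 0.40 in OGDH-depleted cells, so a change as large as that of SPRY4 lies outside both. DUSP4 is at chr8:29333064-29350684 and DUSP6 at chr12:89347235-89352501, both on the minus strand. Of the DUSP6 exon bases 28.6% are shared with another counted gene, ENSG00000274021, and fragments there were not counted for either.

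ETV4 and ETV5 encode ETS factors of the same subfamily and moved in opposite directions on starvation of control cells. ETV4 stood at 154, 127 and 161 CPM in control cells and 110.2, 106 and 124 in starved control cells, with no overlap, and fell 1.3-fold (log2 fold change -0.38, SE 0.12, adjusted p = 0.026). ETV5 stood at 75.2, 87.5 and 77.7 CPM in control cells and 104, 113 and 91.9 CPM in starved control cells, again with no overlap, and rose 1.28-fold (log2 fold change 0.36, SE 0.11, adjusted p = 0.029). Both calls were lost on leaving out any 1 of control replicate 1, control replicate 3, starved control replicate 1 or starved control replicate 2, with edgeR adjusted p from 0.0793 to 0.103 for ETV4 and from 0.0745 to 0.112 for ETV5. With the spread estimated from the 6 libraries compared alone, both were lost too (adjusted p = 0.109 and 0.0875).

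In OGDH-depleted cells neither ETS gene responded to starvation beyond the spread. ETV4 was at 148, 145 and 136 CPM with glucose and 151, 148 and 126 when starved (log2 fold change -0.02, SE 0.11, adjusted p = 0.94). ETV5 was at 76.9, 83 and 69.4 CPM with glucose and 74.8, 84.9 and 85.8 when starved (log2 fold change 0.10, SE 0.11, adjusted p = 0.61). Neither interaction passed edgeR's test (adjusted p = 0.16 for ETV4 and 0.31 for ETV5), so the responses were not shown to differ between the lines. In starved cells ETV5 was 1.26-fold lower with OGDH depletion (log2 fold change -0.33, SE 0.11, adjusted p = 0.049), a call lost with 10 of the 12 libraries left out in turn (all but control replicate 2 and starved control replicate 3; edgeR adjusted p from 0.0563 to 0.17). ETV4 was higher in those cells without passing (log2 fold change 0.32, SE 0.12, adjusted p = 0.059), and passed without control replicate 2, starved control replicate 3 or starved OGDH-depleted replicate 3 (edgeR adjusted p from 0.0268 to 0.0404). ETV4 lies at chr17:43527844-43579620 and ETV5 at chr3:186046314-186110318 (minus strand both), with 1.93% and 2.84% of exon bases shared with DHX8 and DGKG.

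CCND1 was highest in OGDH-depleted cells with glucose. Its level was 602, 576 and 606 CPM in control cells, 533, 545 and 587 in starved control cells, 824, 832 and 854 in OGDH-depleted cells and 570.5, 533 and 549.6 in starved OGDH-depleted cells. The 3 OGDH-depleted libraries with glucose were above the other 9, and the starved groups overlapped. OGDH depletion raised CCND1 1.41-fold with glucose (log2 fold change 0.49, SE 0.08, adjusted p = 0.0086), and starvation lowered it 1.52-fold in OGDH-depleted cells (log2 fold change -0.60, SE 0.08, adjusted p = 0.0016). In control cells starvation gave -0.10 (95% interval -0.28 to 0.08), and the 2 starvation responses differed by -0.50 (SE 0.12, edgeR interaction, adjusted p = 0.011). After starvation the 2 lines differed by -0.01 (95% interval -0.19 to 0.17). The fall in OGDH-depleted cells held in all 21 alternative fits, at log2 fold changes from -0.64 to -0.56. The rise with glucose was lost in 4 of 21: without OGDH-depleted replicate 1 or 3 (edgeR adjusted p = 0.0515 and 0.051), with no filter on low counts (0.0637) and with the 6 libraries compared alone (0.0674), at log2 fold changes from 0.46 to 0.51 in all 21. The interaction was lost in 1 of 20, with no filter on low counts (log2 difference -0.47, edgeR adjusted p = 0.169). CCND1 is at chr11:69641156-69654474 (plus strand) and shares 10.4% of its exon bases with LTO1.

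Cyclin D1 acts with CDK4 and CDK6 and is opposed by the CDK inhibitors. Of 14 cyclin D partners, inhibitors and related genes looked up, 11 were tested. CCND3 also stands in the list of relatives below. On starvation of control cells 1 was called higher, CDKN2A (5.85 to 14.8 CPM, log2 fold change 1.34, adjusted p = 4.77e-05), and 5 lower, among them CDKN2C (log2 fold change -1.28, adjusted p = 2.54e-04) and E2F1 (log2 fold change -0.97, adjusted p = 0.0015), beside 16.9% and 17.3% of all tested genes. In OGDH-depleted cells 1 was called, CDKN1B, the p27 inhibitor, which was lower after starvation (log2 fold change -0.49, adjusted p = 0.018), beside 4.66% of all genes lower. With glucose OGDH loss gave 0 calls among the 11 by edgeR, 0 by DESeq2 and 0 at an unadjusted p under 0.05, and CCND1 rose there. The median log2 fold changes of the 11 were -0.13, -0.19 and 0.03 in these 3 comparisons, against -0.02, 0.02 and -0.01 over all tested genes. Without glucose OGDH loss raised CDKN2C (log2 fold change 0.54, adjusted p = 0.045) and lowered CDKN2A (log2 fold change -1.21, adjusted p = 1.40e-04), and the interaction was called for the same 2 (CDKN2C log2 difference 0.92, adjusted p = 0.027; CDKN2A log2 difference -0.96, adjusted p = 0.01). Over all genes 13.5% were higher and 14.8% lower without glucose, and 8.19% and 8.84% in the interaction. The medians of the 11 were 0.05 and 0.04.

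PHLDA1 had the widest spread between libraries. Its level was 436, 843 and 439 CPM in control cells, 1967, 1249 and 573 in starved control cells, 444, 492 and 395 in OGDH-depleted cells and 426, 579 and 1091 in starved OGDH-depleted cells. Each pair of groups compared overlapped, and no comparison passed. Starvation gave a log2 fold change of 1.14 in control cells (95% interval 0.16 to 2.12; edgeR adjusted p = 0.069) and 0.65 in OGDH-depleted cells (95% interval -0.32 to 1.62). The first passed edgeR's test without control replicate 2 (1.53, adjusted p = 0.0274), without starved control replicate 3 (1.49, adjusted p = 0.012) or without starved OGDH-depleted replicate 3 (1.13, adjusted p = 0.0428), and OGDH loss without glucose passed without starved control replicate 3 (-1.202, adjusted p = 0.0383). The 4 libraries with the highest PHLDA1 level were the 4 with the highest mitochondrially encoded share of counts and the 4 with the lowest slope of their deviation from the group mean on GC content (-0.27 to -0.09 log2 units for 10 points). The part of either measure in the level of PHLDA1 was not tested. PHLDA1 is at chr12:76025447-76031776 (minus strand) and shares 9.35% of its exon bases with its antisense gene PHLDA1-AS1, which lay at 0.165 CPM or less in group mean.

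**Figure D2:**
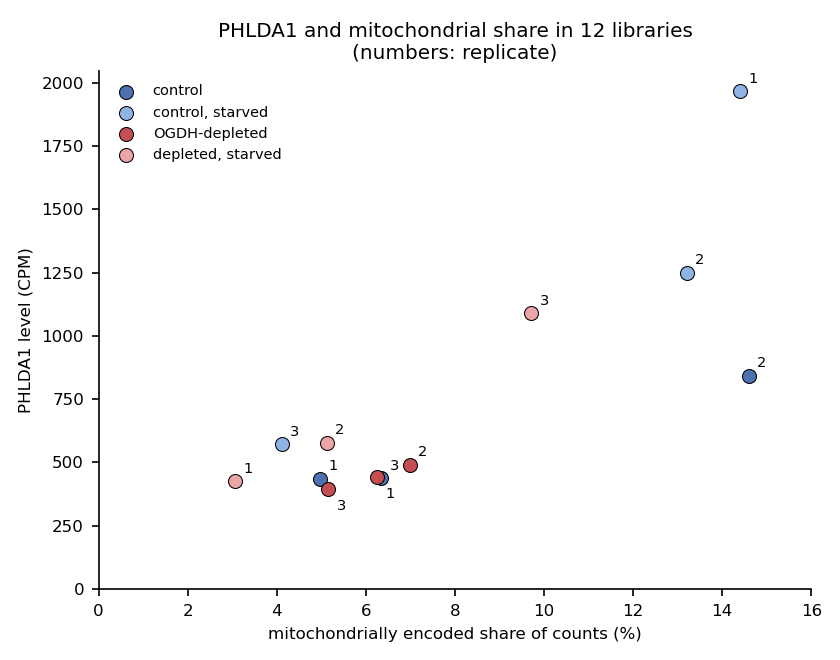
PHLDA1 level (CPM) against the share of counts from mitochondrially encoded genes (percent) in the 12 libraries, coloured by group and numbered by replicate. The 4 libraries above 800 CPM have shares of 9.71% to 14.6%, and the other 8 lie between 395 and 579 CPM with shares of 3.06% to 6.98%.

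The libraries that stood apart moved several members, and not in 1 direction. Against the mean of the 2 others of its group, control replicate 2 had a log2 CPM higher by 0.94 for PHLDA1, 0.42 for SPRED2 and 0.36 for SPRED1 and different by -0.44 for SPRY2, -0.30 for ETV4 and -0.17 for DUSP4. Starved OGDH-depleted replicate 3 had the same signs for these 6 genes (1.14, 0.24, 0.23, -0.38, -0.25 and -0.30). Starved control replicate 3 had the opposite sign for each of the 6 (-1.45, -0.48, -0.26, 0.33, 0.19 and 0.23). It also had the lowest mitochondrially encoded share of its group (4.11%) and the highest GC slope (0.23). Control replicate 2 and starved OGDH-depleted replicate 3 had the highest shares (14.6% and 9.71%) and lowest slopes (-0.27 and -0.19) of theirs. The part of either measure in these shifts was not tested. CCND1 differed by at most 0.12 in size in these libraries. SPRY4 differed by 0.18, 0.13 and -0.33, against a starvation response in control cells of 1.79.

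On starvation of control cells, 2 of the 10 members were called higher (SPRY4 and ETV5) and 2 lower (SPRED1 and ETV4), beside 16.9% of all tested genes higher and 17.3% lower. On starvation of OGDH-depleted cells, 0 were called higher and 1 lower (CCND1), beside 2.31% and 4.66% of all genes, and 1 in each direction had an unadjusted p under 0.05 in edgeR. With OGDH loss in glucose, 2 were higher (DUSP4 and CCND1) and 0 lower, beside 1.48% and 1.38%. DESeq2 gave 0 higher and 1 lower in the first of these 2 comparisons and 3 higher and 0 lower in the second. With OGDH loss without glucose, 1 was higher (DUSP4) and 2 lower (SPRY4 and ETV5), beside 13.5% and 14.8%. For the interaction, 1 was positive (SPRED1) and 2 negative (SPRY4 and CCND1), beside 8.19% and 8.84%. The members' median log2 fold change was 0.03, 0.04, 0.01, 0.13 and -0.10 in these 5 comparisons, and that of all tested genes -0.02, 0.02, -0.01, 0.00 and 0.01. No comparison had more than 2 members called in 1 direction. In the comparisons with many calls over all genes, the members' counts were near the background.

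**Figure D3:**
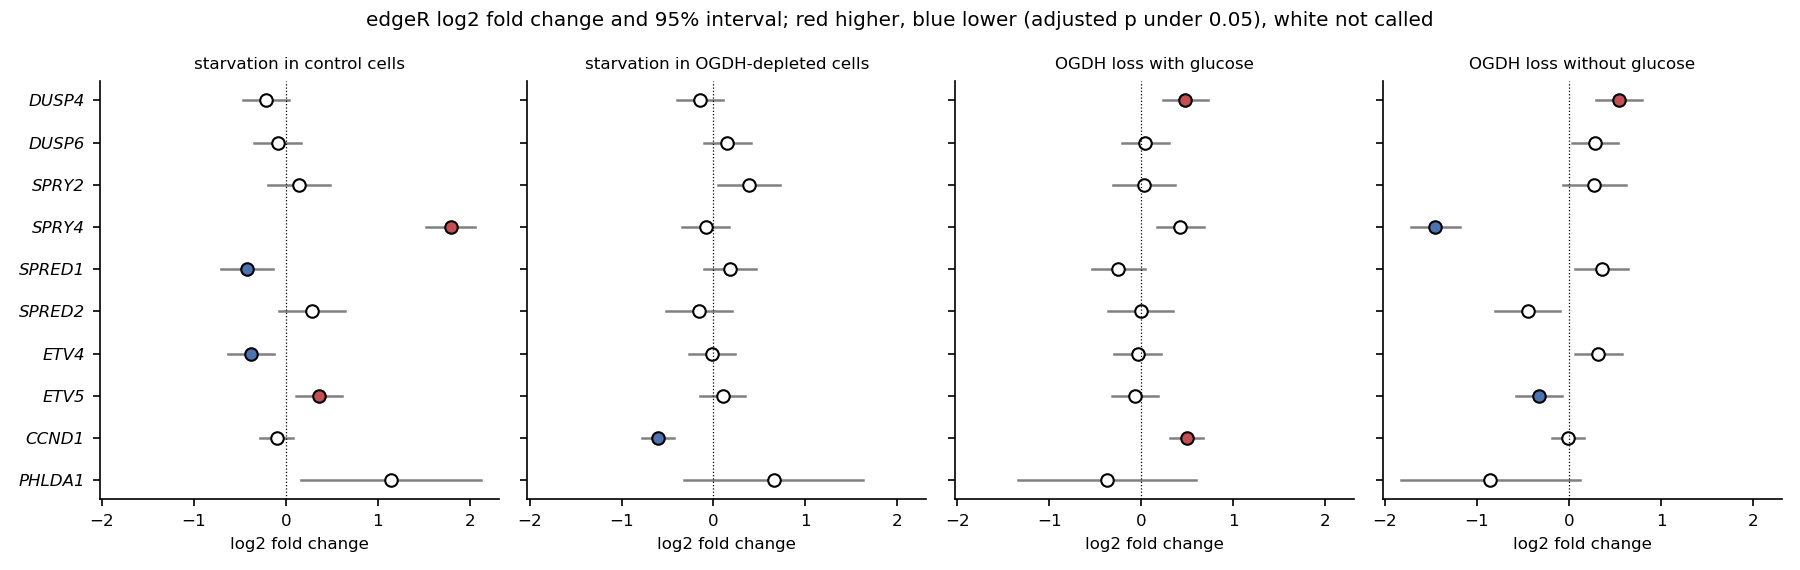
edgeR log2 fold change (x axis) of each member in the 4 pairwise comparisons, with lines for 95% intervals, red for called higher, blue for called lower and white for not called. SPRY4 stands apart at 1.79 and -1.45 in the first and last panels, and the intervals of PHLDA1 are the widest.

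Without the 3 libraries that stood apart, the spread within groups was smaller by construction and more members were called. The counts were 8 of 10 for starvation in control cells (60.4% of all tested genes were called in either direction), 3 for starvation in OGDH-depleted cells (18% of genes), 3 for OGDH loss with glucose (11%), 7 for OGDH loss in starved cells (52.5%) and 9 in the interaction test (42.9%). The added calls for starvation in control cells were PHLDA1 (log2 fold change 1.87), SPRED2 (0.58), DUSP4 (-0.36) and CCND1 (-0.17). DUSP6 and SPRY2 were not called there, at 0.01 and -0.12. For SPRED1 this fit gave smaller values, -0.22 on starvation of control cells (edgeR adjusted p = 0.0364) and an interaction of 0.30 (adjusted p = 0.0451), beside -0.42 and 0.60 with all libraries. For SPRY4 this fit gave 1.95 on starvation of control cells and an interaction of -2.10, beside 1.79 and -1.88 with all libraries. In this fit the starved control libraries had mitochondrially encoded shares of 14.4% and 13.2%, and those of the other groups 3.06% to 6.98%. Comparisons with the starved control group were therefore confounded with this difference between libraries. Its part in the calls of this fit was not tested.

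A second list of 15 ERK output genes, with immediate-early and delayed targets, was described in the same way. On starvation of control cells 14 of the 15 were called higher and 0 lower, beside 16.9% and 17.3% of all tested genes, with a median log2 fold change of 1.32 against -0.02 over all genes. The immediate-early gene FOS went from 13.6 to 402 CPM (log2 fold change 4.89, adjusted p = 2.68e-09) and the stress-induced phosphatase gene DUSP1 from 13.2 to 224 CPM (log2 fold change 4.08, adjusted p = 1.25e-07). The pro-apoptotic gene BCL2L11, which ERK is known to hold down, was among the 14 called higher (log2 fold change 0.96, adjusted p = 4.33e-05); it was named after its values were seen. The gene not called was IER3, at 1.17 to 1.65 CPM in group mean. FOS and DUSP1 are known to be induced by other stress signals as well as by ERK. DUSP5 also stands in the list of relatives below.

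In OGDH-depleted cells 4 of the 15 were called higher and 0 lower on starvation, beside 2.31% and 4.66% of all genes, with a median of 0.19. They included FOS (log2 fold change 4.41, adjusted p = 2.65e-08) and EGR1, another immediate-early gene (log2 fold change 3.997, adjusted p = 3.68e-04), which gave 3.07 in control cells. Neither passed the interaction test (log2 difference -0.48, adjusted p = 0.075 for FOS and log2 difference 0.93, adjusted p = 0.29 for EGR1). By the interaction 8 of the 15 differed and all 8 were negative, beside 8.84% of all genes, with DUSP1 (log2 difference -2.75, adjusted p = 5.14e-05) and DUSP5, a nuclear ERK phosphatase (log2 difference -2.33, adjusted p = 5.84e-06), at the largest size. Without glucose 9 of the 15 were lower with OGDH loss and 0 higher, beside 14.8% and 13.5%, led by DUSP1 (log2 fold change -2.78, adjusted p = 2.20e-06) and TRIB1, a pseudokinase gene (log2 fold change -2.04, adjusted p = 1.11e-06). BCL2L11, which ERK is known to hold down, was counted among the 8 (log2 difference -1.003) and among the 9 (log2 fold change -1.18). With glucose 2 were higher, DUSP5 (log2 fold change 1.04, adjusted p = 9.63e-04) and MYC (log2 fold change 0.86, adjusted p = 0.0048), and 0 lower, beside 1.48% and 1.38%. In each of the 5 comparisons the direction with 0 calls by edgeR also had 0 by DESeq2 and 0 at an unadjusted p under 0.05. The medians were 0.33 with glucose, -0.72 without and -0.98 for the interaction. The lists were drawn up with earlier results of these libraries known, and all 5 comparisons share libraries.

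**Figure D4:**
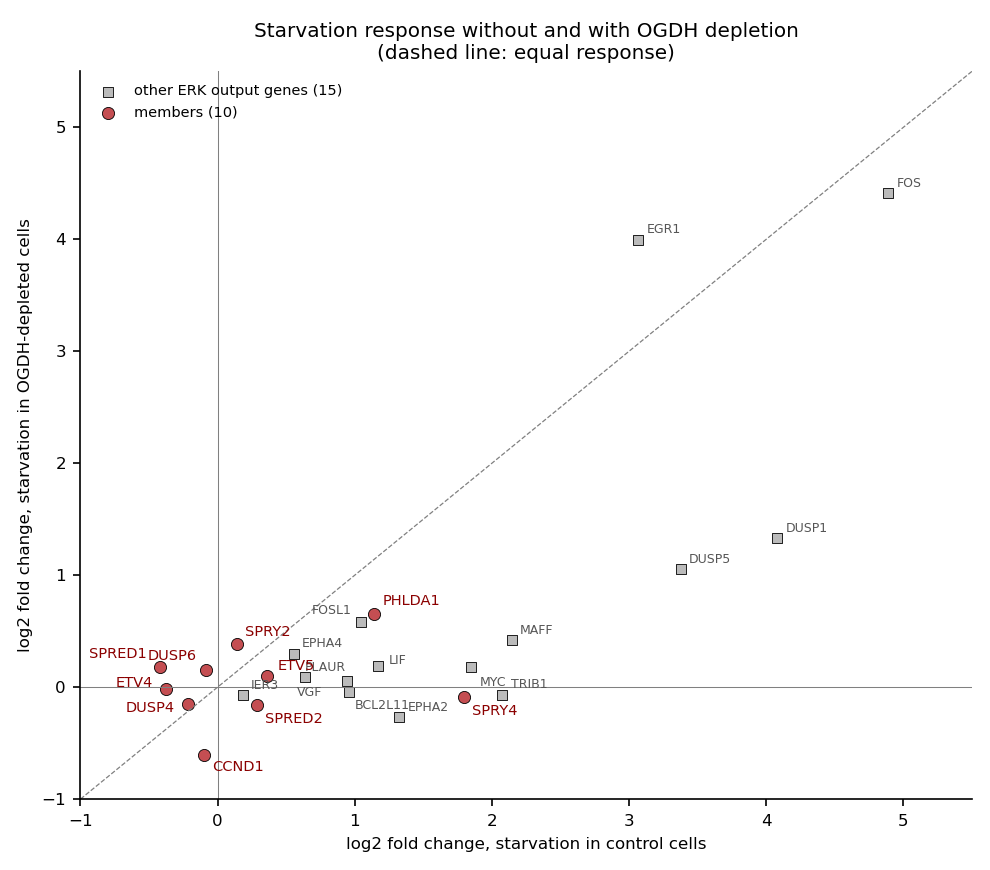
Starvation response in control cells (x axis) and in OGDH-depleted cells (y axis), as edgeR log2 fold changes, for the 10 members (red circles) and the 15 other ERK output genes (grey squares), with a dashed line for equal responses. SPRY4 lies with TRIB1 and MYC near 2 on the x axis and near 0 on the y axis, most members lie near the origin, FOS lies near the dashed line and EGR1 above it.

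Of 11 relatives of the members, 9 were tested, and on starvation of control cells 3 were called higher, among them DUSP5 (42.7 to 444 CPM, log2 fold change 3.38, adjusted p = 1.43e-08) and SPRED3, the remaining SPRED gene (log2 fold change 0.73, adjusted p = 0.002), and 3 lower, among them ETV1, the remaining member of the ETV4 subfamily (log2 fold change -0.94, adjusted p = 0.026), and CCND3, another D-type cyclin (log2 fold change -0.64, adjusted p = 0.034). Over all tested genes 16.9% were higher and 17.3% lower. SPRED3 thus rose where SPRED1 fell, and ETV1 and ETV4 fell where ETV5 rose. The calls of SPRED1, ETV4 and ETV5 were each lost with some libraries left out, as given above. No alternative fits are given for SPRED3 and ETV1. In OGDH-depleted cells 1 was higher, DUSP5 (log2 fold change 1.05, adjusted p = 3.06e-04), and 2 were lower, among them DUSP7, a cytoplasmic ERK phosphatase (log2 fold change -0.57, adjusted p = 0.027), beside 2.31% and 4.66%. With glucose 1 was higher with OGDH loss (DUSP5), beside 1.48%. Without glucose 1 was higher, ETV1 (log2 fold change 1.15, adjusted p = 0.011), and 3 lower, led by DUSP5 (log2 fold change -1.29, adjusted p = 1.02e-05) and SPRED3 (log2 fold change -1.17, adjusted p = 1.20e-04), beside 13.5% and 14.8%. The interaction was called for 1 in the positive direction (ETV1) and 3 in the negative, among them DUSP5 and DUSP7 (log2 difference -1.06, adjusted p = 0.0029), beside 8.19% and 8.84%. The medians of the 9 were 0.05 and -0.24 for starvation in control and OGDH-depleted cells, 0.18 and -0.30 for OGDH loss with and without glucose and, for the interaction, -0.63.

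Among 10 ETS factors and repressors of ERK targets, 2 were called higher and 4 lower on starvation of control cells, beside 16.9% and 17.3% of all tested genes. ETS2 went from 24.6 to 93.3 CPM (log2 fold change 1.92, adjusted p = 2.64e-07) and ETS1 from 206 to 625 CPM (log2 fold change 1.60, adjusted p = 1.85e-07), while ETV1 and ERF, an ETS repressor that ERK exports from the nucleus, were lower (log2 fold change -0.93, adjusted p = 8.98e-05 for ERF). In OGDH-depleted cells 3 were higher, among them ATXN1, a partner of the repressor CIC (log2 fold change 0.77, adjusted p = 0.003), and ETS1 (log2 fold change 0.51, adjusted p = 0.0057), and 1 was lower, CIC itself (log2 fold change -0.54, adjusted p = 0.0089), beside 2.31% and 4.66%. With glucose 0 of the 10 were called for OGDH loss by edgeR, 1 by DESeq2 and 1 at an unadjusted p under 0.05. Without glucose 3 were higher, led by ETV1 and ATXN1 (log2 fold change 1.01, adjusted p = 8.63e-05), and 2 lower, the latter being ETS2 (log2 fold change -1.45, adjusted p = 3.48e-06) and ETS1 (log2 fold change -0.77, adjusted p = 6.26e-05), beside 13.5% and 14.8%. The interaction was called for 3 in the positive and 2 in the negative direction, again with ETS2 (log2 difference -1.51, adjusted p = 6.09e-05) and ETS1 (log2 difference -1.10, adjusted p = 1.14e-04) negative. The positive calls were led by ETV1 (log2 difference 1.69, adjusted p = 0.015) and ATXN1 (log2 difference 1.13, adjusted p = 8.68e-04). Over all genes 8.19% of interactions were called positive and 8.84% negative. The medians of the 10 were -0.09 and 0.34 for starvation in control and OGDH-depleted cells, -0.03 and -0.08 for OGDH loss with and without glucose and, for the interaction, -0.05.

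Of 28 genes of the cascade itself, from RAS to ERK and their scaffolds, 4 were called higher and 1 lower on starvation of control cells, beside 16.9% and 17.3% of all tested genes, with a median log2 fold change of 0.07. BRAF itself was among the 4 (44.1 to 73 CPM, log2 fold change 0.73, adjusted p = 0.019), with RPS6KA3, which encodes the ERK-activated kinase RSK2 (log2 fold change 0.78, adjusted p = 0.0041), and RPS6KA1, which encodes RSK1, was the 1 lower (log2 fold change -0.99, adjusted p = 1.27e-04). On starvation of OGDH-depleted cells 0 of the 28 were called by edgeR, 1 by DESeq2 and 2 at an unadjusted p under 0.05, beside 2.31% of all genes higher and 4.66% lower by edgeR. With OGDH loss in glucose 0 were called by edgeR, 1 by DESeq2 and 3 at an unadjusted p under 0.05, beside 1.48% and 1.38%. Without glucose 3 were higher with OGDH loss, led by RPS6KA1 (log2 fold change 0.79, adjusted p = 7.65e-04) and MRAS (log2 fold change 0.66, adjusted p = 0.0039), and 3 lower, led by RPS6KA3 (log2 fold change -0.61, adjusted p = 0.019) and the scaffold IQGAP1 (log2 fold change -0.54, adjusted p = 0.018), beside 13.5% and 14.8%. The interaction was called for 1, RPS6KA1 (log2 difference 0.97, adjusted p = 0.0032), and for 0 in the negative direction by edgeR or DESeq2, with 0 there at an unadjusted p under 0.05, beside 8.19% and 8.84%. The medians of the 28 were 0.23 for starvation in OGDH-depleted cells, -0.05 and 0.07 for OGDH loss with and without glucose and, for the interaction, 0.02.

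Of 13 growth factor receptors upstream of the cascade 11 were tested, and on starvation of control cells 4 were higher, led by EGFR (71.6 to 204 CPM, log2 fold change 1.51, adjusted p = 7.42e-05) and NGFR (log2 fold change 1.17, adjusted p = 3.86e-06), and 5 lower, led by ERBB3 (81 to 18.6 CPM, log2 fold change -2.12, adjusted p = 1.00e-06) and ERBB2 (log2 fold change -1.06, adjusted p = 0.0062). Over all tested genes 16.9% were higher and 17.3% lower. In OGDH-depleted cells 0 of the 11 were called on starvation by edgeR or DESeq2, and 1 had an unadjusted p under 0.05, beside 2.31% and 4.66% of all genes called by edgeR. With glucose OGDH loss raised 1, AXL (log2 fold change 0.79, adjusted p = 0.0056), and lowered 2, ERBB3 (log2 fold change -0.96, adjusted p = 0.0046) and MET (log2 fold change -0.58, adjusted p = 0.046), beside 1.48% and 1.38%. Without glucose 5 were higher, led by INSR (log2 fold change 1.08, adjusted p = 4.29e-04) and ERBB2 (log2 fold change 0.97, adjusted p = 0.012), and 3 lower, led by NGFR (log2 fold change -1.46, adjusted p = 1.52e-06) and EGFR (log2 fold change -1.25, adjusted p = 3.74e-04), beside 13.5% and 14.8%. The interaction was positive for ERBB3 (log2 difference 1.91, adjusted p = 7.40e-05) and negative for 3, led by NGFR (log2 difference -1.40, adjusted p = 4.65e-05) and EGFR (log2 difference -1.36, adjusted p = 0.0034), beside 8.19% and 8.84%. The medians of the 11 were -0.16 and -0.05 for starvation in control and OGDH-depleted cells, 0.11 and -0.09 for OGDH loss with and without glucose and, for the interaction, 0.26.

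The genes whose pattern over the 12 libraries was nearest to that of SPRY4 were MICAL2, RGMB-AS1 and GFPT1. Likeness was measured as the root mean square difference of log2 CPM centred on each gene's mean, over 11132 tested genes with a mean of at least 5 CPM, and was 0.0961, 0.106 and 0.129. MICAL2, an actin-oxidising enzyme gene, stood at 31.2, 98.2, 37.5 and 35.7 CPM in control, starved control, OGDH-depleted and starved OGDH-depleted cells. GFPT1, which encodes the rate-limiting enzyme of the hexosamine pathway, stood at 66.4, 249.5, 82 and 92.7 CPM in the same order. RGMB-AS1, an antisense RNA counted without strand and so uncertain, stood at 6.21, 21.4, 9.19 and 7.69 CPM. Each was highest in starved control cells, as was SPRY4, which follows from how these genes were picked.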

How the data were processed

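Titles gave each sample's group and replicate number. The deposited table has fragment counts for each gene name, not normalized, and the gene's length in bases, made by the authors with featureCounts 2.0.1 over exons, in pairs, without strand and without fragments that fit several genes or places, per the file headers. The hg38 build and Subread are named in the submitters' processing notes, and the aligner is not given in the sources used here. Shared exon bases therefore lose fragments.

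Genes were kept by filterByExpr (minimum count 10, minimum total count 15), which left 18526 of 61209 names, with 99.9% of counts. Differences were tested with edgeR 4.0.16 in R 4.3.3 (glmQLFit, robust, and glmQLFTest) on TMM-scaled counts, with 1 mean per group, all 12 libraries and 5 contrasts. Benjamini-Hochberg adjustment ran over all tested genes, at a threshold of 0.05. The SE is the log2 fold change divided by the root of its F value, and its median was 0.12 for the members on starvation of control cells against 0.22 for all genes. Replicate pairs differed by a chi-square per degree of freedom of 3.91 or more, so no library repeated another.

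The members, the lists and the tests were chosen with earlier results of these data known, so they are no independent support. All members are reported. From each list, the 2 called genes with the largest rise and the 2 with the largest fall and at least 5 CPM in the higher group are named. Alternatives were DESeq2 1.42.0, upper-quartile scaling, no filter, a minimum count of 50, the groups compared alone, a replicate block and leaving out each library. Chosen after seeing the data were a fit without the 3 libraries that stood apart, a GC offset and a non-robust prior.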

Additional observations from a re-analysis of the deposited data

Results flagged for a closer look

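In all, 3 members were picked out because their response to starvation differed between control and OGDH-depleted cells by edgeR's interaction test. For SPRY4 the response in OGDH-depleted cells minus that in control cells was -1.88 on the log2 scale, with the 3 starved control libraries above the other 9. For CCND1 it was -0.50, with the 3 OGDH-depleted libraries with glucose above the other 9, a call lost in 1 of 20 alternatives, with no filter on low counts (edgeR adjusted p = 0.169). For SPRED1 it was 0.60, a call lost with 10 of the 12 libraries left out in turn.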

How the results depend on the processing

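Of the 13 calls among 50 member comparisons, 5 held in every alternative run: SPRY4 for starvation in control cells, OGDH loss without glucose and the interaction, CCND1 for starvation in OGDH-depleted cells, and DUSP4 for OGDH loss without glucose. Members called on starvation of control cells (4) numbered 2 with no filter on low counts, 1 with the groups compared alone, 8 without the 3 libraries that stood apart, and 1 to 5 with a library left out. On starvation of OGDH-depleted cells (1) they numbered 3 without the 3 libraries. For OGDH loss with glucose (2) they numbered 1 with upper-quartile scaling, 0 with no filter, 0 with the groups compared alone, 1 with the replicate block, and 0 to 3 with a library left out. For OGDH loss without glucose (3) they numbered 5 by DESeq2, 7 without the 3 libraries, 7 with the GC offset, and 2 to 6 with a library left out. For the interaction (3) they numbered 1 with no filter, 9 without the 3 libraries and 2 to 3 with a library left out. The added fits have fewer samples or another spread, and the cause of the other shifts was not tested. In the fit without the 3 libraries, the starved control group also differed from the others in mitochondrially encoded share. Same-numbered libraries of different groups had correlations of their deviations from -0.791 to 0.753 in 18 pairings, 8 of them over 0.1, and 8 with their own number as the best. The 3 libraries that stood apart enter these correlations, which therefore cannot decide whether replicate numbers pair the samples. With the replicate block the interaction of SPRED1 had an edgeR adjusted p of 0.0688 and DUSP4 with glucose one of 0.0984. All reversals were of uncalled log2 fold changes, which ran from -0.37 (PHLDA1, OGDH loss with glucose) to 0.18 (SPRED1, starvation in OGDH-depleted cells). Without the 3 libraries these were DUSP6 (0.01) and SPRY2 (-0.12) for starvation in control cells, ETV4 for starvation in OGDH-depleted cells (0.041), SPRY2 (-0.11), SPRED2 (0.14) and PHLDA1 (0.0095) for OGDH loss with glucose, and CCND1 for OGDH loss without glucose (0.0098). With the GC offset they were SPRED1 (-0.072) and ETV4 (0.25) for starvation in OGDH-depleted cells and CCND1 without glucose (0.011). SPRED2 with glucose gave 0.0027 by DESeq2, 0.0097 with no filter and 0.0032 with the replicate block, and CCND1 without glucose 0.033 with no filter and 0.00083 with the groups compared alone. With a library left out, the ranges were starvation in OGDH-depleted cells, ETV4 -0.067 to 0.076; OGDH loss with glucose, DUSP6 -0.014 to 0.12, SPRY2 -0.10 to 0.12, SPRED2 -0.10 to 0.15, ETV5 -0.13 to 0.00020, PHLDA1 -0.53 to 0.02, ETV4 -0.13 to 0.028; OGDH loss without glucose, CCND1 -0.040 to 0.0325; interaction, DUSP4 -0.033 to 0.18. The leave-one-out fits of 2 libraries in a group assume a spread like that of the other groups.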
